A study of Saccharomyces cerevisiae with 63 samples.

Results

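Most of the 57 genes described here make amino acids in budding yeast or regulate that synthesis, and a few act in amino acid breakdown. Membership was set by name, and LEU5 is counted with leucine by its name alone. A gene was taken when its standard name was ARG, HIS, LEU, ILV, LYS, TRP, ARO, HOM, THR or SER followed by a number, and when its systematic name did not start with YCR, the code of the right arm of chromosome III. Of the 6088 genes in the table, 57 met this rule, and all 57 were among the 5822 genes tested. The names fall into 9 pathways. Arginine held 9 genes, histidine 7, leucine 6, isoleucine and valine 5, lysine 8, homoserine and threonine 4, serine 4, the aromatic pathway 9 and tryptophan 5. The rule used no measured value.

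Messenger RNA was counted in diploid SK1 yeast, a strain background that sporulates quickly and synchronously. Each of the 3 strains carried pCUP-IME1, which places IME1, the gene of the transcription factor that starts meiosis, behind a copper-inducible promoter. The strain called WT had no other mutation named in its labels. The second strain was an ime4 mutant, in the gene of the methyltransferase that makes N6-methyladenosine in meiotic mRNA, and the third a pho92 mutant, in the gene of a YTH-domain protein that binds this mark. Cells were grown in rich YPD and then in BYTA, an acetate medium, and were moved at 0 h to sporulation (SPO) medium with 0.3% potassium acetate. At 2 h they received 50 µM copper sulfate, and RNA was taken at 0, 2, 3, 5, 6, 7 and 9 h from 3 biological replicates of each strain, which gave 63 libraries. The alleles that these strains carry at loci such as LEU2, HIS3, TRP1, LYS2, HIS4 and ARG4, which are often used as auxotrophy markers, are absent from the labels, so these 6 genes are described apart and counts are also given without them.

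Yeast can build all of these amino acids from intermediates of glycolysis, the pentose phosphate pathway and the citric acid cycle. When amino acids run short, uncharged tRNA activates the kinase Gcn2, translation of the activator Gcn4 rises, and Gcn4 binds upstream of biosynthetic genes in most of the pathways, a response called general amino acid control. Single pathways have regulators of their own, such as Leu3 for leucine synthesis, Lys14 for lysine synthesis, the Arg80 and Arg81 proteins for arginine and Aro80 for the breakdown of aromatic amino acids. In sporulation medium the cells starve for nitrogen while they go through premeiotic S phase, recombination, the meiotic divisions, which the activator Ndt80 switches on, and spore formation.

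The sites that these regulators bind are shown first, because the regulators differ between the pathways. The Gcn4 core site TGACTC, on either strand, lay within 300 bases before the start codon of 33 of the 57 genes (57.9%), against 466 of 6001 protein-coding genes (7.77%). The Leu3 site, CCG and CGG with any 4 bases between them, was found before 5 of the 57 (8.77%, against 1.57% of all genes) and the Lys14 site TCCNNNGGA before 6 (10.5%, against 3.15%). The core of the middle sporulation element, CACAAAA, to which Ndt80 binds, was found before 4 (7.02%, against 7.92%). The Ume6 site GGCGGC, which represses early meiotic genes in growing cells, was found before 2 (3.51%, against 5.2%). Each motif was searched alone on both strands, and sites of different motifs could overlap. By pathway, the Gcn4 site was found before 6 of 7 histidine, 4 of 5 isoleucine and valine and 6 of 9 arginine genes but before only 1 of 9 genes of the aromatic pathway. The sequences are those of the S288C reference genome, build R64 from RefSeq, and not of SK1. A match describes the letters and does not show binding.

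Excerpts around the sites are printed 5′ to 3′ on the strand of the gene for 6 genes whose changes are described below, with the motif letters in capitals. HIS4 (chrIII:68515-68600, minus strand) has 3 Gcn4 sites and HOM3 (chrV:258224-258253, minus strand) has 1. In LYS1 (chrIX:420853-420997, minus strand) the capitals mark 2 Gcn4 sites, written GAGTCA because they lie on the opposite strand, and a Lys14 site between them. LEU1 (chrVII:478818-478881, minus strand) has 2 Leu3 sites. In SER33 (chrIX:222627-222753, minus strand) they mark a middle sporulation element and a Gcn4 site, and in ARO10 (chrIV:1233922-1233952, plus strand) a middle sporulation element on the opposite strand.
HIS4: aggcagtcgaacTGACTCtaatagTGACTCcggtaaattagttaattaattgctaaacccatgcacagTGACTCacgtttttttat
HOM3: ttttcaggcccaTGACTCaccttttctttc
LYS1: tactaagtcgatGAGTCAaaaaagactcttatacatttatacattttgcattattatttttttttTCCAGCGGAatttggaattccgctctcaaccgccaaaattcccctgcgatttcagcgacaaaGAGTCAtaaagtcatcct
LEU1: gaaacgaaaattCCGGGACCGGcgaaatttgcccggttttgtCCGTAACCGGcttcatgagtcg
SER33: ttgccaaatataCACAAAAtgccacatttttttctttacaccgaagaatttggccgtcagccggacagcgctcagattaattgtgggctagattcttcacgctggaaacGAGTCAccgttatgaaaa
ARO10: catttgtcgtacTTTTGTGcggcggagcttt

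Libraries held 12826747 to 33048881 counts, and no member had fewer than 15 counts in any library. Levels are given as CPM, counts scaled to a common library total with trimmed mean of M-values (TMM) factors, and are listed for replicates 1, 2 and 3 in that order. Differences are log2 fold changes ± standard error (SE) from 1 edgeR quasi-likelihood model of all 63 libraries, and a gene was called at a Benjamini-Hochberg adjusted p under 0.05 over the 5822 genes. The mutated genes were low in their own strains. IME4 ranged from 0 to 2.37 CPM in ime4 against 37.4 to 365.5 CPM in WT, and PHO92 from 0 to 4.26 CPM in pho92 against 4.42 to 2232 CPM in WT. The share of counts in the 100 most abundant genes was 54.3% to 58.5% in WT at 7 h and 24.8% to 26.4% in ime4 at 7 h. With total counts in place of TMM the median over all genes moved by −1.10 from 3 to 6 h in WT, by 1.1 at 6 h and 1.78 at 7 h for ime4 against WT, and by 0.85 at 6 h and 0.84 at 7 h for pho92 against WT. The changes below are relative to the TMM scale. Since the samples are bulk RNA, fewer cells at a stage and less RNA per cell cannot be told apart.

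The label of meiotic diploid cells was checked against marker genes. The summed level of 7 meiotic genes, which include NDT80 and SPS4, lay between 1787 and 3059 CPM in WT at 0 h and between 163200.0 and 192800.0 CPM at 7 h. At 7 h this sum lay between 13570.0 and 21870.0 CPM in ime4 and between 37930.0 and 87110.0 CPM in pho92. At 9 h the sum was 53610.0 to 90900.0 CPM in ime4, 79510.0 to 128400.0 CPM in WT and 119200.0 to 153100.0 CPM in pho92. SPS4 alone made up most of it, with mean levels of 58490.0, 103500.0 and 124000.0 CPM in the same order. Gene by gene, 6 of the 7 were higher than WT in ime4 at 9 h (median log2 difference 1.79) and 3 in pho92 (median 0.26). All 7 were detected in every library. A list of 10 haploid-specific genes, which diploid cells repress, summed to 65.1 to 75.4 CPM in WT at 0 h, and at 7 h to 1899 to 2257 CPM in WT, 317 to 487 CPM in ime4 and 683 to 1332 CPM in pho92. At 9 h this order was turned, with 563 to 677 CPM in WT, 1033 to 1641 CPM in ime4 and 829 to 1003 CPM in pho92. The strains differed in these markers at the times at which the amino acid genes are compared below, and the part of this difference in the results was not tested.

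From 0 to 2 h in WT, the interval of starvation before copper was added, 24 of the 57 genes rose and 10 fell, while 56.9% of all tested genes were called in either direction (26.6% higher, 30.4% lower). The median change of the members was 0.35, against −0.03 over all genes. Among the 51 genes other than the marker loci 22 rose and 9 fell. In arginine synthesis 5 of 9 genes rose, in isoleucine and valine synthesis 4 of 5 and in lysine synthesis 5 of 8. The genes with LEU names had 3 rises and 2 falls. Tryptophan synthesis and homoserine and threonine synthesis had 2 rises and 2 falls each. The aromatic pathway had 3 rises and 3 falls, with a median of −0.09 that became 0.13 with total counts. Without WT replicate 1 the isoleucine and valine rises were 2. Whether the pathways differed from each other was not tested.

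LEU1, which encodes isopropylmalate isomerase of leucine synthesis and carries the 2 Leu3 sites printed above, had the largest rise of the members in WT from 0 to 2 h. Its libraries held 698, 761 and 805 CPM at 0 h and 17490.0, 7891 and 12080.0 CPM at 2 h, so the groups lay far apart (log2 fold change 4.05 ± 0.27, adjusted p = 5.00e-17). At 2 h LEU1 also had the highest mean level of the members per kb of gene length, 5338 CPM per kb, ahead of ILV5, the reductoisomerase of branched-chain synthesis, with 2944 CPM per kb. ARG7, the ornithine acetyltransferase of the mitochondrial arm of arginine synthesis, had 118, 83.1 and 89.4 CPM at 0 h and 338, 359 and 389 CPM at 2 h (1.90 ± 0.24). ARG3, ornithine carbamoyltransferase, moved from 41.2, 43.6 and 48.3 CPM to 151, 167 and 175 CPM (1.89 ± 0.26). Neither gene's libraries overlapped between the times. ARG82, an inositol polyphosphate kinase that also takes part in arginine regulation, rose by 1.504 ± 0.17.

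Apart from the marker locus TRP1, the largest falls from 0 to 2 h in WT were in genes of aromatic amino acid breakdown and in tryptophan synthesis. ARO10, a decarboxylase of the Ehrlich pathway, which turns aromatic amino acids into alcohols, had 699, 1703 and 1194 CPM at 0 h and 196, 275 and 243 CPM at 2 h (−2.33 ± 0.40). TRP4, anthranilate phosphoribosyltransferase, went from 133, 161 and 147 CPM to 50.9, 61.2 and 78.02 CPM (−1.21 ± 0.20). The groups of both genes were separate. ARO80, the activator of ARO9 and ARO10, changed by −0.99 ± 0.15, and ARO9, an aromatic aminotransferase, by −0.99 ± 0.30. The ARO9 call was lost when WT replicate 2 was left out, where the change was −0.65.

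**Figure D1:**
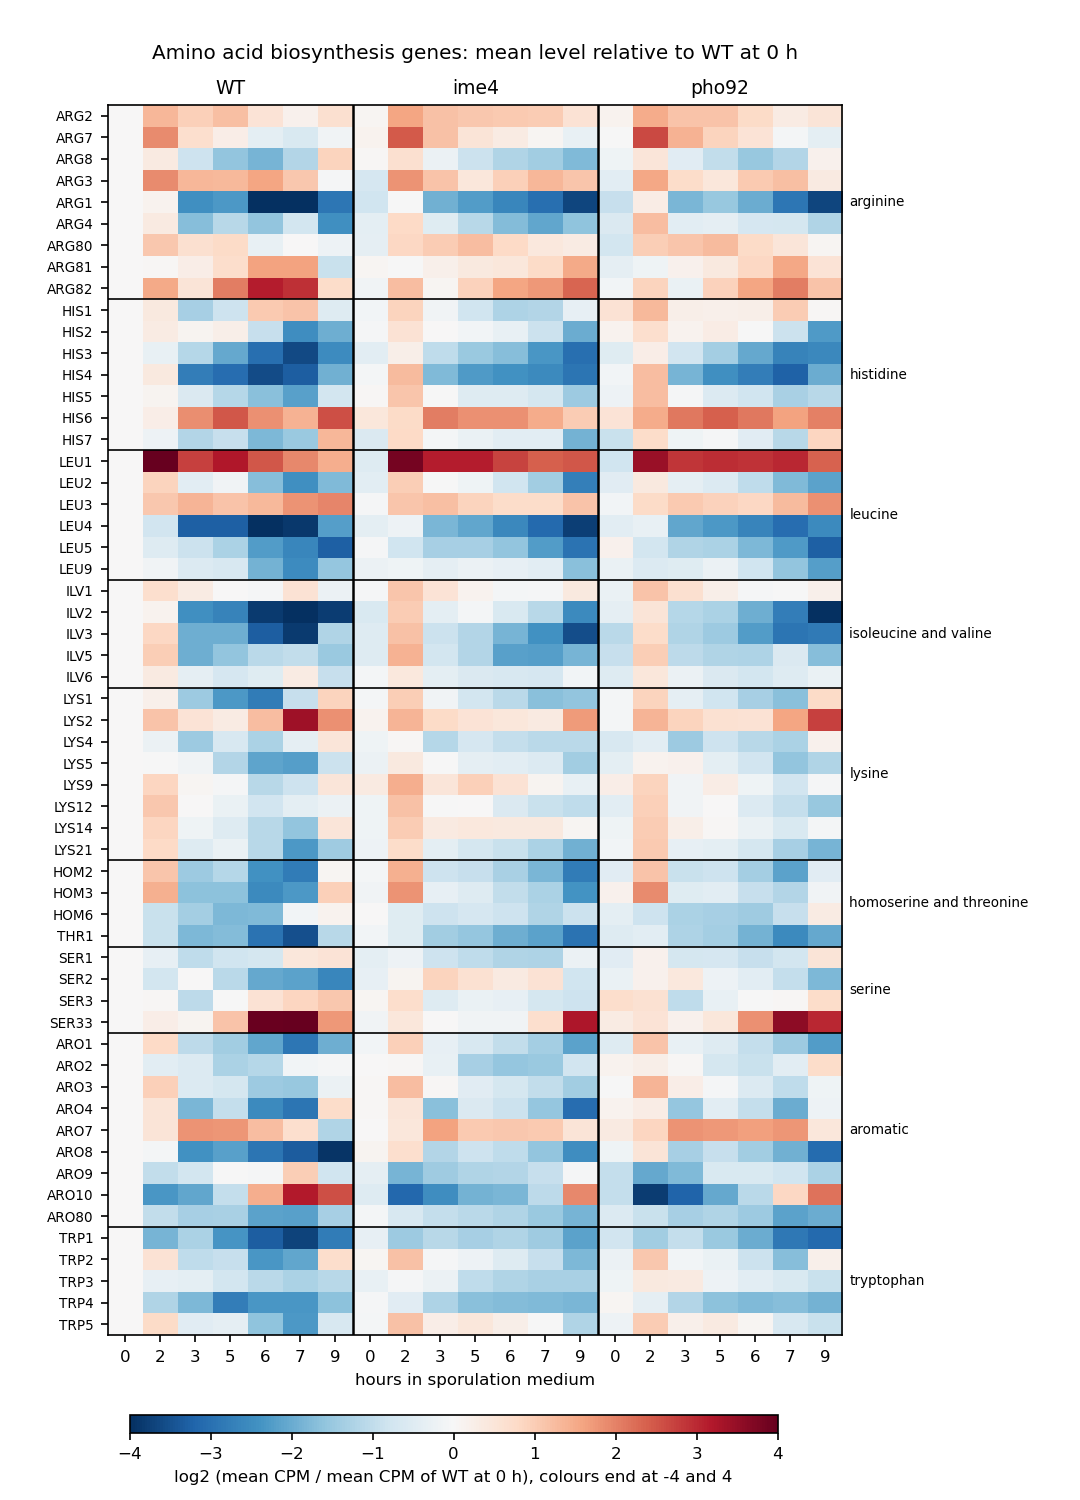
Mean level of the 57 genes (rows, grouped by pathway) at the 7 times in WT, ime4 and pho92 (columns), as log2 of the mean CPM of 3 libraries over the WT mean at 0 h, with red above and blue below it. In WT most rows turn blue from 2 to 7 h and many are paler or red again at 9 h, while LEU1 is red from 2 h on and ARO10 goes from blue at 2 h to red at 7 h.

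In the first hour after copper was added, from 2 to 3 h in WT, the direction turned. Of the 57 genes 42 fell and 5 rose, against 65.6% of all genes called (36.3% higher, 29.3% lower), and the median was −0.92 against 0.10 over all genes. Without the marker loci 37 of 51 fell and 4 rose. Falls were called in 8 of 9 arginine, 7 of 8 lysine, 5 of 7 histidine, 4 of 5 isoleucine and valine genes and in all 4 of homoserine and threonine. With total counts the falls were 2 in histidine and 2 in homoserine and threonine.

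Apart from the marker locus HIS4, the 4 largest falls were HOM3 and 3 of the 5 genes of isoleucine and valine synthesis. HOM3, the aspartate kinase that opens the route to homoserine and threonine, had 112, 172 and 146 CPM at 2 h and 13.9, 18.2 and 18.8 CPM at 3 h (−3.07 ± 0.42, adjusted p = 1.16e-08). ILV5 went from 3624, 3275 and 3586 CPM to 421, 464 and 481 CPM (−2.94 ± 0.29). ILV3, dihydroxyacid dehydratase, went from 1193, 1024 and 1079 CPM to 166, 146 and 168 CPM (−2.78 ± 0.27). ILV2, the catalytic subunit of acetolactate synthase, changed by −2.62 ± 0.36. In none of HOM3, ILV5 and ILV3 did any library at 3 h reach the lowest at 2 h.

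Among the 5 genes that rose from 2 to 3 h in WT, TRP1 is a marker locus. HIS6, an isomerase in the middle of histidine synthesis, had 5.16, 3.52 and 3.87 CPM at 2 h and 13.5, 12.02 and 12.8 CPM at 3 h (1.61 ± 0.22), and was the only histidine gene to rise. ARO7, chorismate mutase, which commits chorismate to phenylalanine and tyrosine, went from 15.1, 12.6 and 10.7 CPM to 29.5, 30.4 and 33.1 CPM (1.28 ± 0.21). Both are low-level genes whose libraries did not overlap. SER2, phosphoserine phosphatase, changed by 0.75 ± 0.30, a call lost without WT replicate 1 (0.62) or WT replicate 3 (0.69). LEU3, the activator of leucine synthesis, changed by only 0.26 ± 0.11, and that call was lost without WT replicate 2 (0.21) or WT replicate 3 (0.20).

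From 3 to 6 h in WT 39 of the 57 genes fell and 10 rose, against 76.5% of all genes called (33.5% higher, 43% lower), with a median of −0.79 against −0.19. With total counts the split was 49 falls and 4 rises. All 5 tryptophan genes and all 4 of homoserine and threonine fell, and with RLE factors, another scaling from the median ratio of counts, 2 of those 4 did. Without WT replicate 3 these counts were 3 and 2, and without WT replicate 2 the homoserine and threonine count was also 2. In serine synthesis 3 of 4 genes rose, with a median of 0.97 that became −0.16 with total counts. Without the marker loci 35 of 51 fell and 9 rose.

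A small set of members went against the rest from 3 to 6 h. SER33, phosphoglycerate dehydrogenase, the first enzyme of serine synthesis from glycolysis, had 51.9, 56.9 and 56.5 CPM at 3 h and 1013, 753 and 585 CPM at 6 h (3.83 ± 0.33, adjusted p = 2.81e-14). ARO10 went from 253, 304 and 298 CPM to 4453, 3184 and 2159 CPM (3.52 ± 0.42). For both genes the 6 h libraries all exceeded those of 3 h. ARG82 rose by 2.61 ± 0.17, and HIS1, the ATP phosphoribosyltransferase that opens histidine synthesis, by 2.40 ± 0.39. A middle sporulation element was found before SER33 and ARO10 but not before ARG82 or HIS1. It was also found before ARO80, whose WT mean was lowest at 7 h, and ILV1, whose WT mean was highest at 2 h. Any link between the element and these changes was not tested. At 7 h ARO10 reached 11920.0, 11280.0 and 9263 CPM, the highest mean of the members per kb at that time (5675 CPM per kb).

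Among the falls from 3 to 6 h, ARG1, argininosuccinate synthetase, had 189, 198 and 279 CPM at 3 h and 66.01, 70.6 and 86.1 CPM at 6 h (−1.58 ± 0.34). It had already fallen from 1177, 1340.0 and 1495 CPM at 2 h. SER2 changed by −1.999 ± 0.33, LYS5, which attaches the phosphopantetheine arm to Lys2, by −1.99 ± 0.20, and ILV2 by −1.37 ± 0.34. For SER2, LYS5 and ILV2 the sign was also negative with total counts. That scaling moved the median of all genes by −1.10 in this step, so it could not test these falls.

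From 6 to 9 h in WT 30 of the 57 genes rose and 13 fell, while 79.9% of all genes were called (34% higher, 45.9% lower). The median of the members was 0.54 and that of all genes −0.28. Without the marker loci 27 of 51 rose and 12 fell. In lysine synthesis 7 of 8 genes rose, with a median of 1.41. All 4 genes of homoserine and threonine rose, with a median of 2.19, and 4 of 5 tryptophan genes. The aromatic pathway had 5 rises and 3 falls, and 4 and 1 without WT replicate 3.

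LYS1, the saccharopine dehydrogenase that forms lysine, had 19.4, 13.2 and 13.4 CPM at 6 h and 154, 222 and 218 CPM at 9 h (3.70 ± 0.33, adjusted p = 5.72e-14). HOM3 went from 7.71, 10.03 and 9.47 CPM to 80.5, 119.5 and 107 CPM (3.49 ± 0.44). ARO4, a DAHP synthase that starts the aromatic pathway, went from 26.7, 37.7 and 45.8 CPM to 341, 388 and 351 CPM (3.29 ± 0.35). The times did not overlap in these 3 genes, which were picked for their large change in this step. HIS7, which makes the imidazole ring of histidine, rose by 3.13 ± 0.30. The largest falls were those of ARG81, the arginine sensor and regulator (−2.50 ± 0.16), ARO7 (−2.44 ± 0.24), ARG82 (−2.41 ± 0.17) and SER33 (−2.21 ± 0.31).

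Over the WT course 24 members (42.1%) fell from 2 to 3 h and rose from 6 to 9 h, as did 16.1% of all genes tested. The other order, a rise from 3 to 6 h and a fall from 6 to 9 h, was seen in 5 members (ARG81, ARG82, ARO9, HIS1 and SER33, 8.77%) and in 22.7% of all genes. All 57 differed between times in the F test of the whole course, as did 99.1% of all genes. The highest mean lay at 2 h for 25 members in WT (43.9%, against 8.11% of all genes), 40 in ime4 (70.2%, against 14.7%) and 34 in pho92 (59.6%, against 12.6%). The lowest lay at 7 h for 21 members in WT (36.8%, against 25.1%), and at 9 h for 33 in ime4 (57.9%, against 37.6%) and 19 in pho92 (33.3%, against 28.4%).

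**Figure D2:**
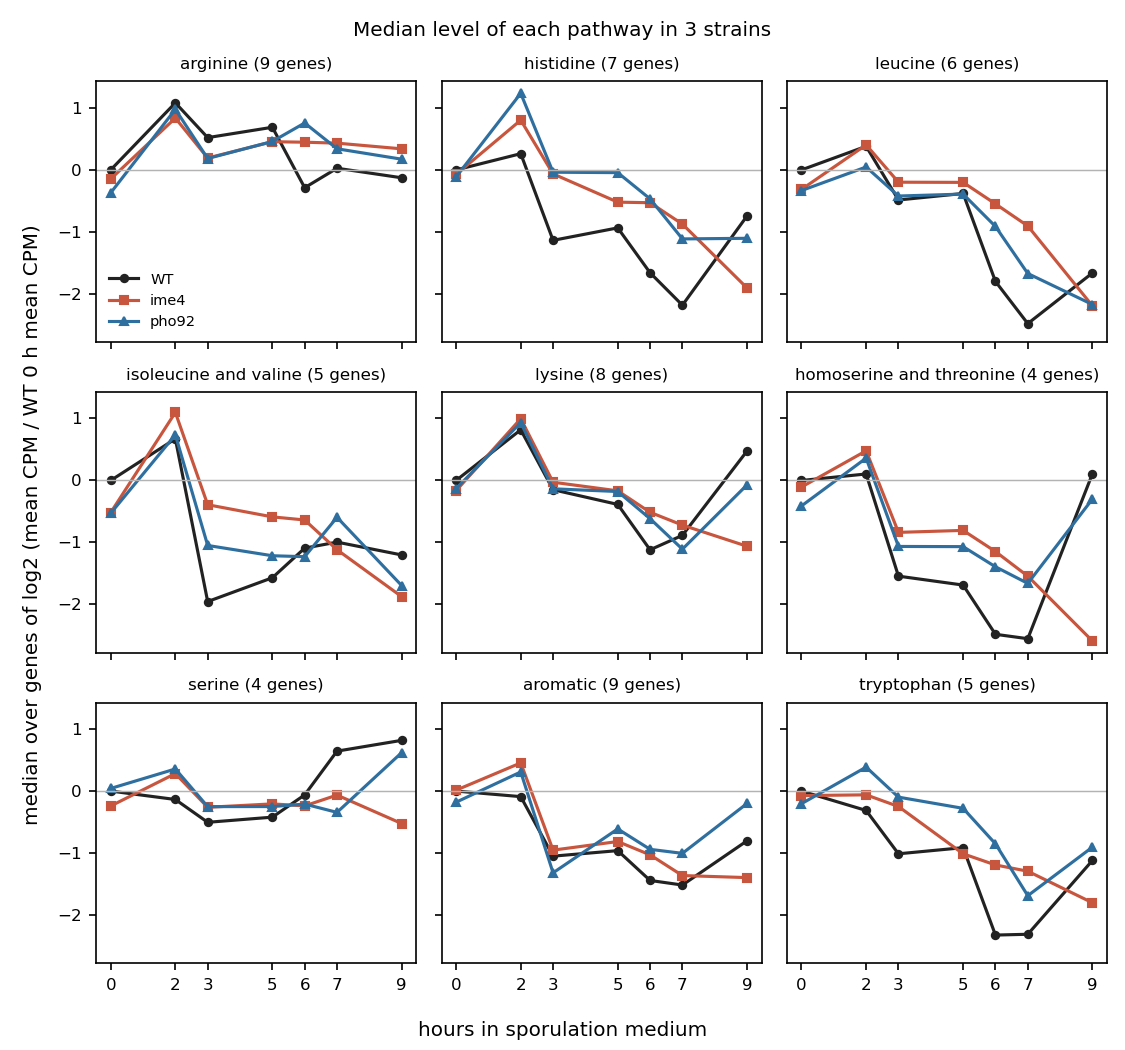
Median over the genes of each pathway of log2 (mean CPM over the WT mean at 0 h) against hours in sporulation medium, with a line per strain. In homoserine and threonine, lysine and histidine the WT line is lowest at 6 or 7 h and higher at 9 h, while the ime4 line is lowest at 9 h.

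The mutants were each compared with WT at the same time. Both comparisons use the same WT libraries, so their values are set side by side and are not independent. At 0 h no member was called in ime4 by edgeR (0.258% of all genes were), 7 had an unadjusted p under 0.05, and DESeq2 also called 0. In pho92 at 0 h 12 members were lower and 1 higher (18.1% of all genes called, 10.9% higher, 7.15% lower). That count of 13 became 6 with total counts, and leaving out WT replicate 2 or WT replicate 3 gave 5 or 4. At 2 h 5 members were higher in ime4 (12.4% of all genes called, 5.67% higher, 6.7% lower), a count that fell to 3 without WT replicate 2, to 2 without ime4 replicate 2 and to 0 without replicate 2 of every strain, and that was 8 without ime4 replicate 1. Leaving out pho92 replicate 1 or 3 also moved it, to 10 or 13, and the cause was not tested. In pho92 at 2 h 11 were higher and 4 lower (12.4% of all genes called, 8.47% higher, 3.9% lower). Leaving out WT replicate 2 took that count of 15 to 4, and leaving out either other WT library took it to 8. It was 6 when pho92 replicate 2 was dropped and 5 when pho92 replicate 3 was.

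At 3 h most called members were above WT in both mutants. In ime4 24 were higher and 2 lower, with a median of 0.39 (30.6% of all genes called, 14.8% higher, 15.9% lower). Leaving out WT replicate 2 took this count of 26 to 13, leaving out ime4 replicate 2 took it to 14, and leaving out replicate 2 of every strain took it to 3. In pho92 21 were higher and 4 lower, with a median of 0.34 (17.9% of all genes called, 10.3% higher, 7.64% lower). Leaving out WT replicate 2 took that count of 25 to 4, and either other WT library to 16. It was 10 when pho92 replicate 3 was dropped, and 3 or 5 when replicate 2 or replicate 3 of every strain was. The counts at 3 h thus moved when single libraries were left out. The WT changes from 2 to 3 h, with a median further from 0 (−0.92), numbered 36 to 49 under the same omissions and 47 with all libraries. Whether the 3 h counts fell through the library dropped or through fewer replicates was not tested.

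At 5 h 21 members were higher and 8 lower in ime4 (49.5% of all genes called, 23.4% higher, 26% lower), and 23 were higher and 3 lower in pho92 (33.6% called, 17.3% higher, 16.3% lower). The ime4 split was 28 higher and 3 lower with total counts, and its count of 29 was 18 without replicate 2 of every strain. Leaving out WT replicate 1 took the pho92 count of 26 to 11, and WT replicate 2 to 17. It was 13 when pho92 replicate 3 was dropped, and 16 or 13 when replicate 2 or replicate 3 of every strain was.

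At 6 h the members' medians lay furthest above WT in both mutants on the TMM scale. In ime4 34 members were higher and 12 lower, with a median of 0.74 against 0.21 over all genes (78.1% of all genes called, 43.6% higher, 34.5% lower). With total counts 48 were higher and 4 lower. In pho92 35 were higher and 8 lower, with a median of 0.69 (70.7% of all genes called, 37.8% higher, 33% lower), and with total counts the split was 48 to 3. Without the marker loci 30 were higher and 11 lower in ime4, and 30 and 7 in pho92. At 7 h 32 were higher and 19 lower in ime4 (82.4% of all genes called, 44.9% higher, 37.5% lower), and 29 and 14 in pho92 (62.8% called, 34.7% higher, 28.1% lower). With total counts the 7 h split was 48 to 3 in ime4 and 43 to 4 in pho92. On that scale the ime4 median was higher at 7 h (2.32) than at 6 h (1.87). In pho92 it was 1.31 at 7 h and 1.53 at 6 h. The pho92 count of 43 at 7 h was 26 without replicate 3 of every strain.

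At 9 h the sign turned in ime4. Of the 57 genes 29 were lower and 15 higher, with a median of −0.51, while over all genes the median was 0.31 and more were higher (46.9%) than lower (33.3%, 80.2% called in all). Without the marker loci 27 of 51 were lower and 13 higher. In pho92 14 were lower and 11 higher, with a median of −0.27 (57.1% of all genes called, 32.4% higher, 24.8% lower). With total counts 34 were lower and 4 higher in pho92, and leaving out WT replicate 2 took the count of 25 to 16, or 15 when replicate 2 of every strain was dropped.

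The sign thus depended on the time for many members, as it did for many of all genes tested. In ime4 21 members (36.8%) were higher than WT at 3, 5 or 6 h and lower at 9 h, against 23.7% of all genes, and in pho92 12 were (21.1%, against 17.9%). The opposite order, lower at 6 or 7 h and higher at 9 h, was seen in 8 members in ime4 (14%, against 26.1% of all genes) and 6 in pho92 (10.5%, against 22.4%). Tested over the 7 times, the difference from WT varied for 55 members in ime4 (96.5%, against 96.3% of all genes). In pho92 it varied for 53 (93%, against 90.6%). The mean over 3 to 9 h averages over these signs. It gave 28 higher and 13 lower members in ime4 (76.1% of all genes called, 39.3% higher, 36.8% lower) and 34 higher and 10 lower in pho92 (60.3% called, 33.9% higher, 26.4% lower), and with total counts 46 and 2, and 46 and 3.

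**Figure D3:**
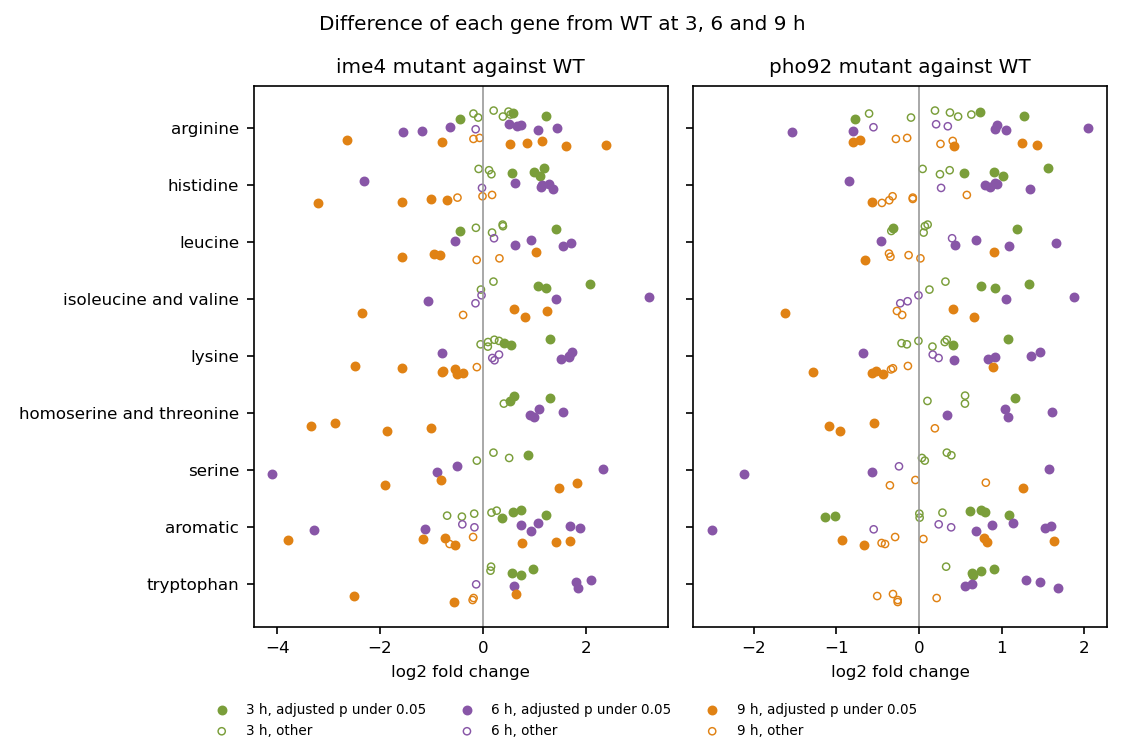
Log2 fold change of each gene in ime4 (left) and pho92 (right) against WT at 3, 6 and 9 h, by pathway, with filled points for adjusted p under 0.05. At 6 h most filled points in tryptophan, histidine and homoserine and threonine lie right of 0 in both mutants, and at 9 h all 4 homoserine and threonine points lie left of 0 in ime4.

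Counts by pathway, here and in the paragraphs that follow, stand beside these shares of all genes. At 6 h 43.6% were higher and 34.5% lower in ime4, and 37.8% and 33% in pho92. At 9 h the shares were 46.9% and 33.3% in ime4, and 32.4% and 24.8% in pho92. Whether a pathway differed from them was not tested. In the arginine pathway, made of enzymes and 3 regulatory genes, ime4 had 5 higher and 3 lower genes at 6 h. At 9 h it had 5 higher and 2 lower. ARG8 encodes acetylornithine aminotransferase. At 9 h its libraries held 80.9, 91.3 and 91.5 CPM in WT, 12.7, 13.04 and 16.7 CPM in ime4 and 57.8, 55.5 and 47.9 CPM in pho92. Both mutants were lower, by −2.64 ± 0.24 in ime4 and −0.71 ± 0.22 in pho92, and the 3 groups did not overlap. ARG1 at 6 h had 66.01, 70.6 and 86.1 CPM in WT, 194, 279 and 133 CPM in ime4 and 250.3, 310.0 and 362 CPM in pho92. It was higher in ime4 (1.44 ± 0.34) and pho92 (2.05 ± 0.35) with no shared values.

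The regulators ARG81 and ARG82 took the reverse course. ARG82 at 6 h had 264, 227 and 227 CPM in WT, 78.6, 66.8 and 98.9 CPM in ime4 and 93.1, 82.3 and 70.8 CPM in pho92, so that both mutants lay below WT (−1.55 ± 0.17 and −1.54 ± 0.17). At 9 h it had 51.1, 37.1 and 46.6 CPM in WT and 133, 131 and 149 CPM in ime4, where it was higher (1.62 ± 0.17). ARG81 at 9 h had 41.9, 29.4 and 34.4 CPM in WT, 189, 167 and 203 CPM in ime4 and 91.4, 83.4 and 109 CPM in pho92 (2.40 ± 0.16 and 1.43 ± 0.15). Every library of either mutant lay above the WT libraries. ARG80, the MADS-box partner of Arg81, was higher in the mean over 3 to 9 h, by 0.57 ± 0.08 in ime4 and 0.55 ± 0.08 in pho92, with a positive value at each of the 5 times.

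In histidine synthesis 5 of 7 genes were higher and 1 lower at 6 h in each mutant. At 9 h 4 genes were lower in ime4. In pho92 1 was lower, a call lost without WT replicate 2, WT replicate 3 or pho92 replicate 1, and 4 were lower with total counts. HIS7 had 84.00, 119 and 122 CPM in WT at 9 h, 8.92, 15.5 and 10.5 CPM in ime4 and 83.9, 90.9 and 63.8 CPM in pho92. The ime4 libraries lay apart from the others (−3.21 ± 0.31), and pho92 did not pass the test (−0.45 ± 0.28), though it did with total counts (−0.89). HIS1 was the 1 gene lower in ime4 at 6 h. It had 103, 94.3 and 80.5 CPM in WT and 13.5, 29.5 and 13.1 CPM in ime4 (−2.30 ± 0.39), with no overlap.

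Of the 6 genes with LEU names 4 were higher and 1 lower at 6 h in each mutant. In pho92 2 were higher without WT replicate 2 or pho92 replicate 3. LEU4, the main isopropylmalate synthase, which commits carbon to leucine, had 164, 145 and 150.2 CPM in WT at 6 h, 486, 684 and 333 CPM in ime4 and 447, 447 and 551 CPM in pho92 (1.71 ± 0.22 and 1.66 ± 0.22). LEU1 stayed high in the mutants. At 9 h it had 2175, 2124 and 1873 CPM in WT, 6155, 3113 and 3441 CPM in ime4 and 3341, 4001 and 4250.0 CPM in pho92, both above WT (1.04 ± 0.24 and 0.91 ± 0.24). The ime4 value was 0.67 without ime4 replicate 1, and the pho92 call was lost with total counts (0.45). The activator LEU3 was lower over 3 to 9 h in ime4 (−0.57 ± 0.05) and pho92 (−0.34 ± 0.05), and with total counts neither was called (0.07 and −0.04).

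Isoleucine and valine genes went different ways. ILV2 had the largest mean rise of the members in ime4 over 3 to 9 h among those with 1 sign at all 5 times (2.41 ± 0.16). At 6 h it had 57.4, 64.8 and 69.2 CPM in WT, 649, 758 and 389.8 CPM in ime4 and 162, 218 and 324 CPM in pho92 (3.23 ± 0.37 and 1.88 ± 0.35). No WT library reached a mutant one. ILV3 at 9 h was lower in both mutants. It had 318, 256 and 235 CPM in WT, 51.9, 61.7 and 44.8 CPM in ime4 (−2.35 ± 0.27) and 88.6, 79.6 and 95.6 CPM in pho92 (−1.62 ± 0.26). The pathway median at 6 h was −0.02 in ime4 and −0.01 in pho92, and with total counts 1.13 and 0.86.

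In lysine synthesis 7 of 8 genes were lower than WT at 9 h in ime4, with a median of −0.65. In pho92 4 were lower and 1 higher, and 2 were lower without replicate 2 of every strain. LYS1 had 154, 222 and 218 CPM in WT, 29.7, 33.7 and 43.3 CPM in ime4 and 186, 207 and 148 CPM in pho92. The ime4 libraries lay below all the others (−2.48 ± 0.31), and pho92 was not called (−0.13 ± 0.29). LYS12, homoisocitrate dehydrogenase, had 88.8, 70.4 and 76.7 CPM in WT and 29.97, 29.3 and 37.7 CPM in pho92 (−1.28 ± 0.18). At 6 h LYS1 was above WT in ime4 (1.74 ± 0.31) and pho92 (1.47 ± 0.31).

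HOM3, HOM2, HOM6 and THR1 act on the route from aspartate to threonine. They are the genes of it that met the rule, which left out YCR names, and not the whole route. At 6 h all 4 were higher in ime4 (median 1.05) and in pho92 (median 1.06), and at 9 h all 4 were lower in ime4 (median −2.36) and 3 in pho92 (median −0.75). The pho92 count at 9 h was 1 without WT replicate 2, WT replicate 3 or pho92 replicate 1. HOM3 at 9 h had 80.5, 119.5 and 107 CPM in WT, 10.5, 11.02 and 8.76 CPM in ime4 and 38.3, 47.5 and 59.1 CPM in pho92 (−3.34 ± 0.44 and −1.09 ± 0.39). HOM2, aspartate-semialdehyde dehydrogenase, had 292, 326 and 319.6 CPM in WT, 37.2, 53.7 and 37.5 CPM in ime4 and 233, 222 and 187 CPM in pho92 (−2.87 ± 0.26 and −0.55 ± 0.24). For HOM3 and HOM2 each ime4 library lay below each pho92 library, and these below WT. In pho92 the HOM3 call was lost without the 3 libraries just named (−0.93, −1.01 and −0.87), and the HOM2 call without any 1 of the WT libraries (−0.53, −0.49 and −0.49). HOM6 and THR1, homoserine dehydrogenase and homoserine kinase, differed by −1.01 ± 0.15 and −1.86 ± 0.22 in ime4 at 9 h.

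The serine genes split by enzyme. SER33 had 959, 1092 and 1172 CPM in WT at 7 h, 62.7, 67.9 and 111 CPM in ime4 and 754, 687 and 374 CPM in pho92. It was lower in ime4 at 6 h (−4.09 ± 0.33) and at 7 h (−3.74 ± 0.33) and in pho92 at 6 h (−2.12 ± 0.30). At 9 h it had 169, 152 and 187 CPM in WT, 494, 323 and 611 CPM in ime4 and 334, 376 and 512 CPM in pho92, and was now higher in both (1.49 ± 0.30 and 1.27 ± 0.30). SER2 went the other way at 6 h. It had 1.90, 4.27 and 2.71 CPM in WT, 17.3, 15.2 and 14.2 CPM in ime4 and 7.07, 8.59 and 11.8 CPM in pho92 (2.33 ± 0.33 and 1.58 ± 0.33). At these low levels the groups still did not overlap. Over 3 to 9 h SER2 was higher by 1.89 ± 0.15 in ime4 and 0.97 ± 0.15 in pho92.

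SER33 and its paralog SER3 differed in level. SER3 had 135 to 186 CPM in WT at 7 h, where SER33 had 959 to 1172 CPM, and both coding sequences are 1410 bases long. Only 11 of their 1361 possible 50-base reads are identical (0.808%). SER3 overlaps SRG1, a noncoding RNA on the same strand, by 77 bases in the annotation, so its counts may include that transcript.

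**Figure D4:**
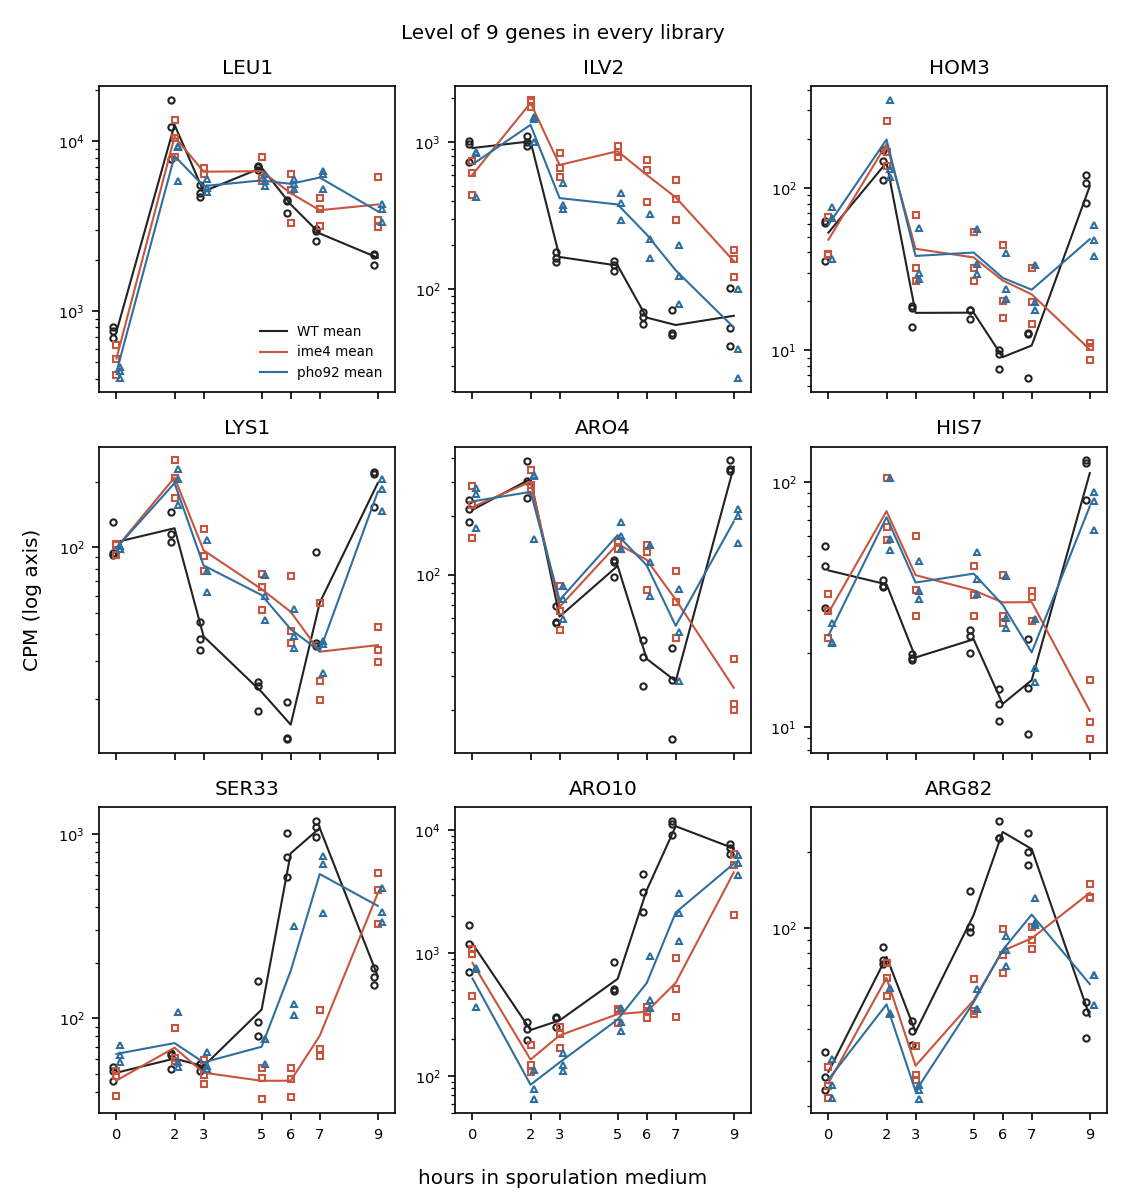
CPM (log axis) of 9 genes in every library against hours in sporulation medium, with open points for libraries and lines for the means of WT, ime4 and pho92. For HOM3, LYS1, ARO4 and HIS7 the WT points at 9 h lie above all ime4 points, and for SER33 and ARO10 the WT points at 6 h lie above all ime4 points.

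The aromatic pathway showed its first enzyme, its branch enzymes and its breakdown genes on different courses. ARO4 at 9 h had 341, 388 and 351 CPM in WT, 21.4, 36.7 and 20.1 CPM in ime4 and 219, 199.9 and 146 CPM in pho92 (−3.78 ± 0.36 and −0.94 ± 0.32). This was the lowest ratio of any member in ime4 at 9 h, and the pho92 call was lost without WT replicate 2 (−0.85). Its isozyme ARO3, which is inhibited by phenylalanine rather than tyrosine, was lower at that time in ime4 (−1.17 ± 0.20), and its pho92 libraries (189 to 221 CPM) overlapped those of WT (190.4 to 206 CPM). Over 3 to 9 h ARO3 was higher in pho92 by 0.58 ± 0.09. The 2 sequences share no identical 50-base stretch in the S288C reference. Matches with mismatches and the SK1 sequences were not checked.

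ARO8, the aminotransferase of phenylalanine and tyrosine synthesis, was above WT over the mean of 3 to 9 h in ime4 (1.53 ± 0.13) and pho92 (1.21 ± 0.13), with the same sign at all 5 times. At 6 h it had 26.9, 28.9 and 38.5 CPM in WT, 118, 142 and 90.9 CPM in ime4 and 70.3, 87.8 and 114 CPM in pho92. ARO7 was higher at 9 h in ime4 (1.70 ± 0.24) and pho92 (1.64 ± 0.24). Its WT libraries then held 4.09, 3.74 and 3.93 CPM, below the 14.01, 13.2 and 10.8 CPM of ime4 and the 10.7, 10.1 and 15.9 CPM of pho92.

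ARO10, a breakdown gene, was the member most reduced over 3 to 9 h in both mutants (−1.90 ± 0.18 in ime4 and −1.497 ± 0.17 in pho92). At 7 h its libraries held 11920.0, 11280.0 and 9263 CPM in WT, 513, 305 and 912 CPM in ime4 and 3087, 2115 and 1250.0 CPM in pho92. The 3 groups were separate at 7 h, with ime4 lowest (−4.23 ± 0.43 and −2.33 ± 0.40). ARO9, which overlaps the open reading frame YHR137C-A by 651 bases, was lower over 3 to 9 h in pho92 (−0.88 ± 0.14). ARO80, the activator of both genes, had 21.96 to 24.2 CPM in WT at 7 h, 32.6 to 40.6 CPM in ime4 and 17.9 to 29.8 CPM in pho92.

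All 5 tryptophan genes were higher at 6 h in pho92 (median 1.30), 3 without replicate 3 of every strain, and 4 in ime4 (median 1.81). TRP5, tryptophan synthase, had 56.9, 68.2 and 84.6 CPM in WT, 270.2, 286 and 199.9 CPM in ime4 and 195, 226 and 252 CPM in pho92 (1.85 ± 0.17 and 1.68 ± 0.17). TRP2, which with Trp3 forms anthranilate synthase, was higher at 6 h in ime4 (1.81 ± 0.26) and lower at 9 h. At 9 h it had 146, 148 and 151 CPM in WT, 25.3, 27.97 and 25.5 CPM in ime4 and 121, 108 and 83.6 CPM in pho92 (−2.50 ± 0.26, and −0.51 ± 0.24 for pho92, which was not called by edgeR but was by DESeq2, −0.54, and with total counts, −0.95). TRP3 was higher over 3 to 9 h in pho92 by 0.56 ± 0.11, and by 0.35 without pho92 replicate 3.

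None of the 6 marker loci was without reads. The lowest count of any of them in a library was 20, and their levels ran from 2.97 to 2083 CPM. These values do not show whether the transcript is of a functional allele or of one introduced as a marker elsewhere in the genome. LYS2, aminoadipate reductase, had 569.6, 315 and 242 CPM in WT at 6 h and 2083, 1477 and 1355 CPM at 7 h. In ime4 it had 190.3, 215 and 203 CPM at 7 h (−3.02 ± 0.24) and in pho92 765, 379 and 279 CPM (−1.79 ± 0.23). The WT libraries at 7 h lay above all of them.

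HIS4, an enzyme of several steps of histidine synthesis with the 3 Gcn4 sites printed above, fell from 365, 425 and 527 CPM at 2 h to 52.8, 43.5 and 52.4 CPM at 3 h in WT (−3.15 ± 0.26). LEU2, isopropylmalate dehydrogenase, fell from 1342, 751 and 961 CPM to 414, 414 and 398 CPM (−1.32 ± 0.28), and ARG4, argininosuccinate lyase, from 827, 664 and 835 CPM to 185, 147 and 229 CPM (−2.05 ± 0.34). No library of the later time reached one of the earlier. HIS3, imidazoleglycerol-phosphate dehydratase, had 30.6 to 34.5 CPM at 2 h and 2.97 to 3.92 CPM at 7 h, and overlaps the open reading frame YOR203W by 44 bases. TRP1, which overlaps YDR008C by 265 bases, fell from 119.9, 161 and 139 CPM at 0 h to 40.6, 35.8 and 38.9 CPM at 2 h (−1.86 ± 0.17) and was higher in ime4 at 6 h (2.10 ± 0.18).

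**Figure D5:**
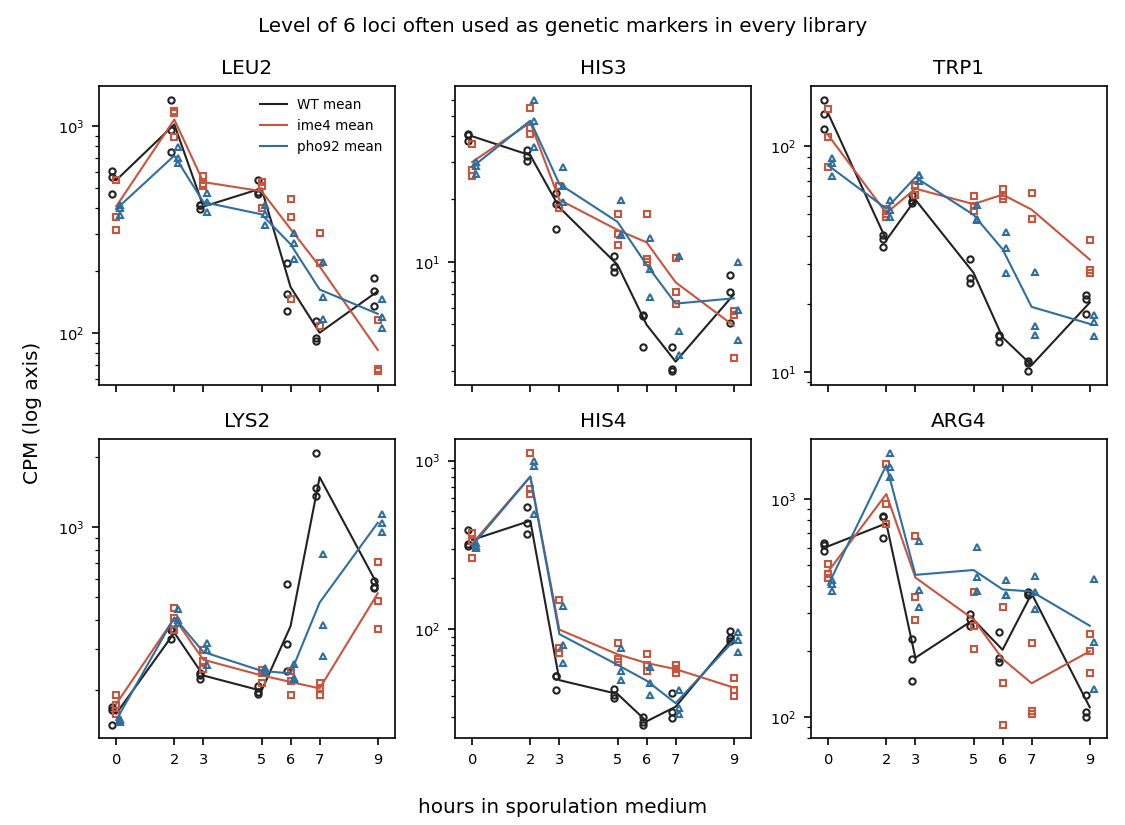
CPM (log axis) of 6 loci often used as genetic markers in every library against hours in sporulation medium, with open points for libraries and lines for the strain means. LYS2 in WT has its highest points at 7 h, above those of both mutants, while the other 5 loci are lower at 6 h than at 2 h in WT.

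Of the other paralog pairs, LEU4 and LEU9, both isopropylmalate synthases, share no 50-base stretch. LEU9 had 89.04 to 109 CPM in WT at 2 h and 16.01 to 22.6 CPM at 7 h, and was higher in ime4 at 7 h (2.09 ± 0.26). LYS21, homocitrate synthase, shares 468 of its 1274 possible 50-base reads with LYS20 (36.7%), and how reads that match both were counted is not stated in the sources used. Its level fell from 196, 216 and 226 CPM at 2 h to 77.4, 85.8 and 98.4 CPM at 3 h in WT (−1.29 ± 0.16) and is uncertain to that extent. LYS20 was not analysed here.

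The mRNA of GCN4 itself, which is regulated mainly in translation, rose from 0 to 2 h in WT and fell after. It had 1394, 2138 and 1782 CPM at 0 h, 3268, 3462 and 3111 CPM at 2 h and 981, 992 and 1037 CPM at 3 h (0.89 ± 0.38 and −1.71 ± 0.39). The call from 0 to 2 h was lost without any 1 of the WT libraries (0.79, 1.03 and 0.97). From 6 to 9 h, when most of the amino acid genes rose, GCN4 mRNA fell (−1.495 ± 0.38), a call lost without WT replicate 3 (−0.87). At 7 h it had 135, 144 and 137 CPM in WT, 390.3, 1305 and 252 CPM in ime4 and 665, 1132 and 1337 CPM in pho92 (2.23 ± 0.39 and 2.92 ± 0.40), with both mutants above all WT libraries. Without ime4 replicate 2 the ime4 value was 1.28.

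The members were also split by the presence of a TGACTC site. From 2 to 3 h 25 of 33 with a site fell and 17 of 24 without, with medians of −0.99 and −0.67. Over all genes tested the site was present before 446, of which 192 were lower with a median of −0.23, and absent before 5055, of which 1455 were lower with a median of 0.12. From 6 to 9 h 19 of 33 members with a site rose and 11 of 24 without. Over all genes tested 160 of 446 with a site rose and 1776 of 5055 without. At 3 h in the mutants 17 of 33 members with a site were higher in ime4 and 16 in pho92, and of the 24 without a site 7 and 5. Over all genes tested 91 of 446 with a site were higher in ime4 and 79 in pho92. Of the 5055 without a site 750 and 509 were higher. The difference between members with and without a site was not tested.

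Compared directly over the mean of 3 to 9 h, 20 members were lower and 11 higher in ime4 than in pho92, with a median of −0.05 against −0.03 over all genes (66.7% of all genes called, 31% higher, 35.8% lower). With total counts 30 were higher and 6 lower and the median became 0.28, while the median of all genes shifted by 0.33 to 0.30. At 9 h the ime4 changes of HOM3, ARO4, HOM2 and ARG8 given above were further from 0 than those of pho92, and the direct difference at that time was not tested.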

How the data were processed

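Polyadenylated RNA of 63 samples was sequenced as 50-nt single reads from stranded libraries. Per the submitters' processing notes, reads were aligned with TopHat2 2.0.14 and Bowtie and counted with HTSeq 0.6.1. The strand setting, the handling of multi-mapped reads and the genome build were not given in the sources used here. The authors deposited raw read counts per gene, per the file headers. These counts were tested with edgeR 4.0.16 in R 4.3.3 (TMM scaling, filterByExpr with a minimum count of 10, 1 quasi-likelihood model of 21 groups, 42 residual degrees of freedom, Benjamini-Hochberg adjustment over 5822 genes, 266 genes removed). The other 126 columns of values per sample were not used.

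Contrasts were successive times in WT and each mutant against WT at each time and over 3 to 9 h. Alternatives were DESeq2 1.42.0, median-ratio (RLE) factors, total counts, no filter, the compared libraries alone, a replicate block and left-out libraries. Full values were given to the marker loci, to the 4 largest rises and falls of each WT step with a group mean of at least 10 CPM, to the 5 largest of each mutant over 3 to 9 h with 1 sign at all 5 times, and to paralog pairs, IME4, PHO92 and GCN4. Other genes and times were named after their values were seen. Genes named for a large change were picked from the same contrast, so non-overlap of their libraries is no separate support. The share of all genes without overlap was not counted. The members, the lists and the tests were chosen with earlier results of these data known. Replicate libraries varied beyond counting error (chi-square over its degrees of freedom 9.46 to 652). Same-numbered pho92 and WT libraries deviated together at 2, 5 and 6 h. There all 3 correlations of their deviations from the group means exceeded 0.1 (0.106 to 0.743). These times were picked out from the correlations themselves, and whether the numbers pair those libraries was not tested. The model took no pairing, so its pho92 tests at these times treat the libraries as independent. The scripts were tested on simulated counts for ime4 against WT at 3 h alone, with equal numbers of raised and lowered genes. That setting does not cover the shifts with scaling at 6 and 7 h.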

Additional observations from a re-analysis of the deposited data

Results flagged for a closer look

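The difference between a mutant and WT was itself tested over the 7 times, and it changed with time for 55 of the 57 amino acid genes in ime4 and for 53 in pho92 (edgeR F test of 6 contrasts, adjusted p under 0.05). The same test called 96.3% and 90.6% of all genes, close to the members' shares of 96.5% and 93%. Compared directly over the mean of 3 to 9 h, 31 of the 57 genes differed between ime4 and pho92, against 66.7% of all genes.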

How the results depend on the processing

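Of 57 genes, the count called for ime4 at 2 h (5 in the model described) was 8 with total counts, 8 with the replicate number as a block and 15 with the compared libraries alone. For pho92 the count at 0 h (13) was 6 with total counts, that at 2 h (15) was 3 with the compared libraries alone, and that at 9 h (25) was 38 with total counts. With libraries left out in turn the ime4 counts ranged from 0 to 1 at 0 h, 0 to 13 at 2 h, 3 to 27 at 3 h, 18 to 31 at 5 h, 41 to 48 at 6 h, 41 to 51 at 7 h, 40 to 45 at 9 h and 33 to 44 over 3 to 9 h. The pho92 counts ranged from 4 to 15 at 0 h, 4 to 17 at 2 h, 3 to 28 at 3 h, 11 to 31 at 5 h, 36 to 45 at 6 h, 26 to 44 at 7 h, 15 to 36 at 9 h and 35 to 48 over 3 to 9 h. In WT they ranged from 27 to 34 for 0 to 2 h, 36 to 49 for 2 to 3 h, 39 to 50 for 3 to 6 h, 37 to 45 for 6 to 9 h and 57 to 57 over the course. The counts whose difference varied with time ranged from 52 to 56 in ime4 and 43 to 55 in pho92, and ime4 against pho92 from 25 to 36. LEU3 over 3 to 9 h in ime4 reversed to 0.065 with total counts. LYS1 in pho92 at 9 h, not called (−0.13), ranged from −0.32 without ime4 replicate 2 to 0.024 without replicate 3 of every strain, where it reversed. The causes were not tested.

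Over the whole series the replicate numbers gave no uniform pairing. The deviations of same-numbered libraries from their group means correlated above 0.1 in 19 of 63 cases (−0.69 to 0.74, median −0.12), and 13 libraries correlated best with their own number. For pho92 and WT at 2, 5 and 6 h all 3 correlations were above 0.1. A fit with a replicate block called 15, 27 and 44 members there, against 15, 26 and 43 without it. The block was shared by all strains and times, so it cannot take up a pairing held at those times alone. A fit that pairs only those libraries was not run. With the block the ime4 count at 2 h became 8, and the other counts of members stayed within 1.5 times.

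The smallest count of a member in a library was 15, for SER2. Whether depth limited members at such low counts was not tested. The 3 replicates per group and the scaling, at 6 and 7 h above all, limit the small differences.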
